A study of Mus musculus with 18 samples.

Results

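The postsynaptic density is the protein network under the membrane of an excitatory synapse, and 34 genes that encode its scaffolds and signalling proteins were examined here as hosts of circular RNA in mouse brain. A circular RNA (circle) forms when a downstream splice donor joins an upstream splice acceptor of the same transcript, and its evidence is the reads that cross this back-splice junction. Circles were taken as belonging to a host when the deposited tables named that gene, which gave 2187 of 208914 circles in the Illumina libraries and 1141 of 166212 in the Oxford Nanopore (ONT) libraries. All 34 genes had circles on both platforms, among 17401 named hosts on Illumina and 14825 on ONT. Membership rested on the known role of each gene.

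Whole brains of male C57BL/6J mice aged 3 to 4 months were compared in 3 genotypes, with 3 replicates of each. Wild type (WT) mice carried no engineered allele. Adar2KO mice (Adar2-/- Gria2R/R) lacked the RNA-editing enzyme ADAR2 and carried a Gria2 gene that encodes the edited arginine codon. Adar1-2KO mice (Adar1E861A/E861A Ifih-/- Adar2-/- Gria2R/R) also had an ADAR1 whose catalytic site is inactivated by the E861A change, and lacked the RNA sensor encoded by Ifih1. Both mutants therefore share the Gria2R/R allele, which WT mice lack, so the effects of that allele and of the loss of ADAR2 cannot be told apart, and neither can those of Adar1E861A and Ifih-/-. RNA was depleted of ribosomal RNA, treated with RNase R to remove linear RNA, and copied by rolling reverse transcription from random primers before sequencing on Illumina (9 libraries) and ONT (8 libraries, WT replicate 1 not analysed here). In such bulk tissue, fewer cells of a type and less RNA per cell cannot be told apart.

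ADAR enzymes convert adenosine to inosine in double-stranded RNA, and paired inverted repeats in the introns beside an exon are one known route to back-splicing. The scaffolds of the postsynaptic density hold glutamate receptors in place and link them to actin. Membrane-associated guanylate kinases and other PDZ proteins lie near the membrane, Shank proteins lie deeper, and regulators of the Arf, Rac and Rap GTPases act on receptor traffic and on the shape of the dendritic spine. Neuronal genes with many exons and long introns are known as rich sources of circles in brain.

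The junctions of 8 main circles (the circle with most back-splice reads of its host) are shown first, because every count below rests on reads that cross such a junction. In each line the 15 bases in lower case end the last exon of the circle and the 15 bases in capitals begin its first exon, read 5′ to 3′ in the direction of the host. They come from GENCODE M21 transcripts of the GRCm38 annotation, matched by exon and intron lengths, while coordinates are those of the deposited tables (GRCm39). Psd3, Dlg1, Cnksr2 and Ppp1r9a are the 4 hosts with most reads, and Dlg2 with Dlg3 and Magi1 with Magi2 are pairs of related genes that are compared later. The last 2 lines were chosen after their values were seen: they are the Kalrn circle and the Dlg1 circle that were read mainly in Adar1-2KO.
Psd3, exons 6 to 9: gatctgcatggccatTAGGGACCGTTGCTT
Dlg1, exons 12 to 14: gatcgcatcatatcgGTGAACAGTGTGTGT
Cnksr2, exons 2 to 4: acaattgtgcaacagGTCTTGATGACTGTT
Ppp1r9a, exons 7 to 11: acggcttgagccaagACTGGAGAGTATGCC
Dlg2, exons 20 to 21: attgattccaaagggAGCCATGTTTGACTA
Dlg3, exon 12: ccctagtaaaaagagGGCCCTGTTTGATTA
Magi1, exons 11 to 12: tggtgcagcgaggagGCAAACCTTTTTTTA
Magi2, exon 10: tcatccatcgaggagGTGATGTCATTGTCT
Kalrn, exons 2 to 4: aaattcatctttgagGATCTTTTCGGAATG
Dlg1, exons 9 to 13: tgacgagatcactagGGAAATTCGGGTCTT

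Illumina libraries held 1516772 to 4308264 back-splice reads, and ONT libraries held 186594 to 673705. Adar1-2KO replicate 3 stood apart on both platforms: it had the most reads of its platform, and on Illumina it listed 21736 circles where the other 8 libraries listed 54244 to 76743. Its Spearman correlation with other Illumina libraries over tested circles was 0.444 to 0.468, against 0.549 to 0.643 among the rest, and it listed 299 circles of the 34 hosts where the others listed 666 to 921. Results that involve Adar1-2KO are therefore given with and without it where it moves them. Read names placed the 3 WT libraries, Adar2KO replicate 3 (87.4% of its reads) and Adar1-2KO replicate 2 on 1 flow cell and the other libraries with read names on others, so flow cell is partly confounded with genotype. Circle counts do not check the engineered alleles: Adarb1, which encodes ADAR2, gave 196, 94 and 84 circle reads (WT), 317, 353 and 336 (Adar2KO), and 505, 215 and 759 (Adar1-2KO). All 12 neuronal marker genes fixed for the tissue check were tested hosts, with a summed level of 25334 to 30713 CPM (edgeR's library-size-scaled counts) over the 9 Illumina libraries, and none was called between genotypes there. On ONT they summed to 16212 to 21621 CPM (WT), 11791 to 15265 CPM (Adar2KO) and 14725 to 22864 CPM (Adar1-2KO). Adar2KO lay wholly below WT there, and 1 neuronal marker was called, higher in Adar1-2KO than in Adar2KO. On Illumina the 6 microglial markers summed to 38.2 to 70.4 CPM, with no read of Csf1r, Cx3cr1 or P2ry12. The 8 astrocyte markers summed to 665 to 715 CPM (WT), 766 to 808 CPM (Adar2KO) and 730 to 801 CPM (Adar1-2KO), with no read of Aqp4 or Ntsr2 and WT lowest. On ONT too WT was lowest, at 932 to 984 CPM, against 1049 to 1296 CPM (Adar2KO) and 1000 to 1328 CPM (Adar1-2KO). The 8 oligodendrocyte lineage markers summed to 523 to 583 CPM (WT), 575 to 661 CPM (Adar2KO) and 575 to 1152 CPM (Adar1-2KO), and the 6 endothelial and pericyte markers to 11.3 to 20.9, 4.79 to 15.7 and 13.0 to 57.1 CPM. No marker of these 4 lists was called. The 6 ependymal and choroid plexus markers summed to 779 to 948 CPM in WT, 406 to 555 CPM in Adar2KO and 497 to 750 CPM in Adar1-2KO, and 1 of them was called lower in each mutant; the part of these marker levels in the results below was not tested.

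Circles of the 34 hosts took about the same share of all back-splice reads in every genotype. On Illumina the share was 1.05%, 1.02% and 1.01% (WT), 0.987%, 0.994% and 0.998% (Adar2KO), and 1.03%, 1.01% and 1.09% (Adar1-2KO). The Adar2KO libraries sat just under the other 2 groups, whose ranges overlapped. On ONT the share was 0.942% and 0.994% (WT), 1.01%, 0.909% and 0.976% (Adar2KO), and 0.934%, 0.956% and 0.942% (Adar1-2KO), with all groups overlapping.

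Reads were concentrated in few hosts: the top 4 held 48.1% of the 255178 Illumina reads of the 34, the top 10 held 73.9%, and the lowest 10 held 2.06%. Levels between hosts are compared only as CPM per kilobase of the longest GENCODE M21 transcript, on the Illumina WT libraries. Cnksr2, a scaffold of Ras signalling, and Dlg1, the guanylate kinase also called SAP97, led the order at 191 ± 28.6 CPM per kb (SD, n = 3) and 189.7 ± 13.5 CPM per kb (SD, n = 3), and their WT libraries overlapped. Psd3, an exchange factor for Arf6, followed at 150.2 ± 19.2 CPM per kb (SD, n = 3), apart from both neighbours. The next 4, whose neighbours overlapped, were Grip1 at 96.5 ± 5.52 CPM per kb (SD, n = 3), Ppp1r9a at 91.1 ± 11.3 CPM per kb (SD, n = 3), Magi2 at 87.6 ± 7.44 CPM per kb (SD, n = 3) and Nckap1 at 72.5 ± 12.0 CPM per kb (SD, n = 3). Magi1 stood alone at 58.2 ± 4.34 CPM per kb (SD, n = 3).

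A long middle of the order, from Kalrn at 42.3 ± 6.21 CPM per kb (SD, n = 3) to Shank2 at 3.08 ± 0.332 CPM per kb (SD, n = 3), showed no gap between neighbours beyond their spread. In it the order ran Kalrn, Ctnnd2, Srgap2, Agap1, Lrrc7, Tiam1, Shank3, Abi2, Sipa1l2, Sipa1l3, Trio, Dlg2, Tanc2, Iqsec1, Fmr1, Rapgef2, Srgap3, Abi1, Iqsec2, Baiap2, Cyfip1, Wasf1 and Shank2. The 3 lowest were Shank1 at 1.02 ± 0.464 CPM per kb (SD, n = 3), Dlg3 at 0.878 ± 0.480 CPM per kb (SD, n = 3) and Dlg4 at 0.708 ± 0.516 CPM per kb (SD, n = 3). Dlg4 encodes PSD-95, the abundant scaffold that gives this structure its usual marker, and it was the lowest of all 34 as a circle host, with WT libraries that overlapped those of Dlg3. Dlg1 and Dlg4, which belong to one family, thus lay at opposite ends of the order. ONT ordered the 34 hosts alike by reads (Spearman correlation 0.95 over 34 hosts, with no test, against 0.80 over 11907 hosts on both platforms), with RNA of the same brains behind both.

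**Figure D1:**
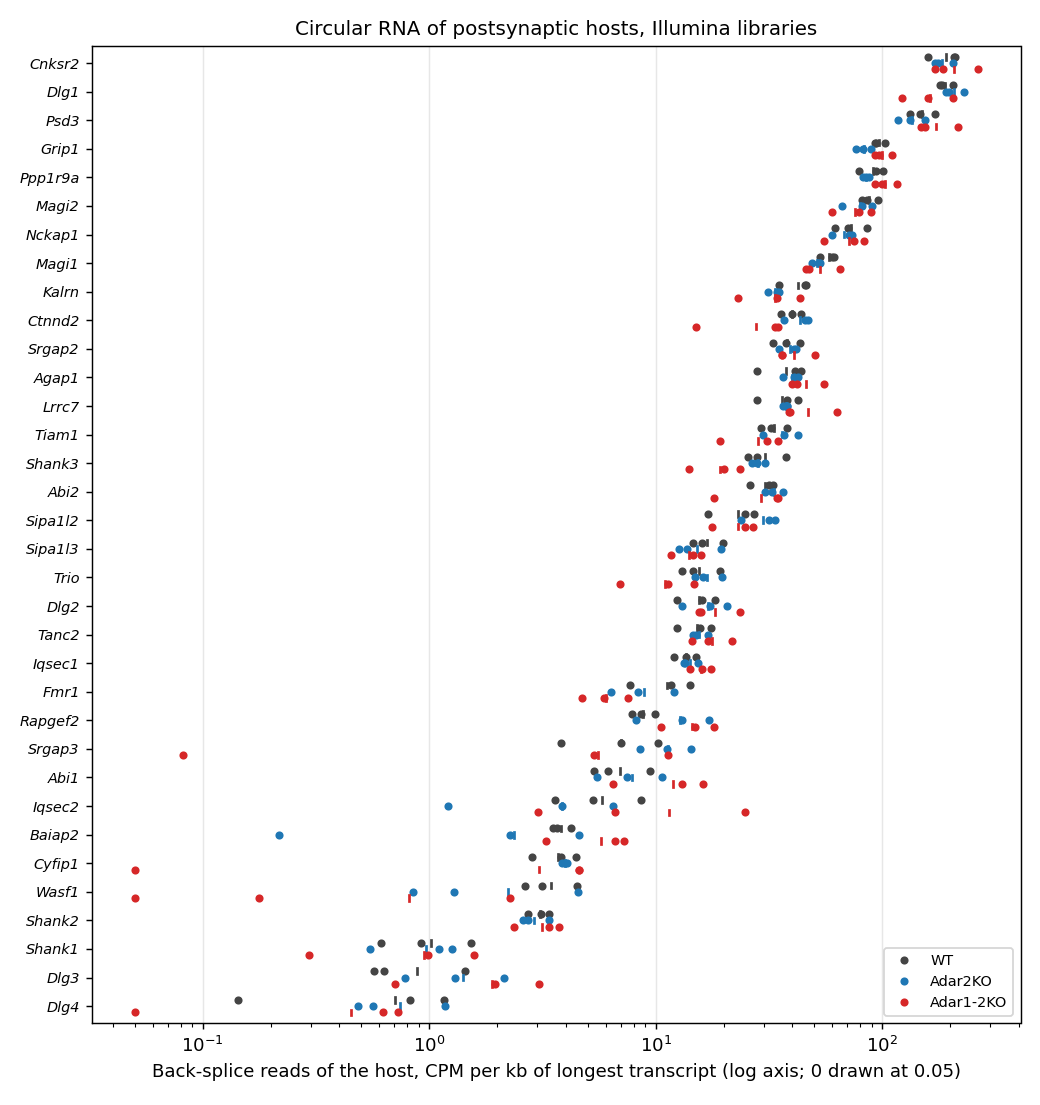
Level of each host as CPM per kb of its longest transcript (log axis) in the 9 Illumina libraries, points coloured by genotype, with a short vertical line for each genotype's mean and values of 0 drawn at 0.05. Hosts are ordered by their WT mean: Cnksr2, Dlg1 and Psd3 lie above 100 in every WT library, Dlg4 lies last, and the 3 colours overlap for most hosts.

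Among the 7 PDZ scaffolds, which hold receptors under the membrane, Dlg1 had 28548 reads over 128 circles and Grip1, which binds AMPA receptors, had 12485 reads over 68 circles. Dlg1 measured 1260.2, 1132 and 1104 CPM (WT), 1416, 1209.9 and 1179 CPM (Adar2KO) and 979, 747 and 1261 CPM (Adar1-2KO). The Adar1-2KO libraries spread from below the WT range to its upper end. Grip1 measured 511, 560.5 and 506 CPM (WT), 418, 486 and 447 CPM (Adar2KO) and 529.6, 599.5 and 506 CPM (Adar1-2KO), and the Adar2KO libraries lay below both other groups. Magi2, a guanylate kinase with inverted domain order, measured 629, 533 and 565 CPM (WT), 594, 436 and 537 CPM (Adar2KO) and 585, 517 and 394 CPM (Adar1-2KO). Its relative Magi1 measured 422, 487 and 475 CPM (WT), 423, 387 and 415 CPM (Adar2KO) and 367, 377 and 513 CPM (Adar1-2KO). For both Magi genes the 3 groups overlapped. Dlg2 (PSD-93) had 3361 reads, Dlg3 (SAP102) 191 and Dlg4 94, and Dlg4 was not read in the Illumina library of Adar1-2KO replicate 3.

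The 8 deep scaffolds were led by Cnksr2, with 28486 reads over 121 circles. Its host sum was 1188, 1198 and 909 CPM (WT), 1011, 984 and 1175 CPM (Adar2KO) and 1068, 976 and 1523 CPM (Adar1-2KO). Only the outlying Adar1-2KO replicate 3 exceeded the WT range. Lrrc7 (densin-180, which binds CaMKII) had 7588 reads over 155 circles, the second-highest number of circles after Kalrn. Tanc2 had 4883 reads, Shank3 4531, and the Rap GTPase regulators Sipa1l2 and Sipa1l3 had 4107 and 2878. The other Shank genes gave far fewer reads, 689 for Shank2 and 235 for Shank1.

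Psd3 had the most reads of any of the 34, 44065, and measured 1935, 1658 and 1506 CPM (WT), 1497, 1755 and 1328 CPM (Adar2KO) and 1752, 1675 and 2450.2 CPM (Adar1-2KO). The groups overlapped except that Adar1-2KO replicate 3 was the highest library. Agap1, which switches Arf GTPases off, measured 490.0, 333 and 522 CPM (WT), 507, 432 and 488 CPM (Adar2KO) and 478, 502 and 658 CPM (Adar1-2KO), with the same library highest. Iqsec1 and Iqsec2, both Arf exchange factors, had 2884 and 1251 reads. Iqsec2 shows how much 1 library can carry: 162, 70 and 33 reads (WT), 19, 53 and 120 reads (Adar2KO) and 138, 41 and 615 reads (Adar1-2KO), where 615 reads came from Adar1-2KO replicate 3.

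Of the 3 linkers to actin and cadherin, Ppp1r9a (neurabin, which binds F-actin and protein phosphatase 1) had 21749 reads and measured 750.4, 896 and 961 CPM (WT), 811, 787 and 830.0 CPM (Adar2KO) and 949, 1107 and 887 CPM (Adar1-2KO). Adar2KO libraries lay within the WT range, as did 2 of the 3 Adar1-2KO libraries, and the other was above it. Ctnnd2 (delta-catenin) had 5193 reads and Baiap2 (IRSp53) 393. Baiap2 had 2 reads in Adar2KO replicate 2 and 26 to 92 in the others.

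The WAVE complex nucleates branched actin, and FMRP, the product of Fmr1, binds its subunit encoded by Cyfip1. Nckap1 was its main circle host with 8047 reads and 392, 324 and 283 CPM (WT), 326, 275 and 336 CPM (Adar2KO) and 381, 345 and 253 CPM (Adar1-2KO), and all groups overlapped. Abi2 had 4452 reads, Fmr1 930, Abi1 783, Cyfip1 545 and Wasf1 133. Cyfip1 had 90, 54 and 28 reads (WT), 65, 59 and 80 reads (Adar2KO) and 102, 67 and 0 reads (Adar1-2KO), so that only Adar1-2KO replicate 3 lacked it. Fmr1 had 162, 137 and 52 reads (WT), 96, 122 and 86 reads (Adar2KO) and 90, 47 and 138 reads (Adar1-2KO), but only 14 reads over the 8 ONT libraries.

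Kalrn, an exchange factor for Rac, had the most circles of any of the 34, 196, and 367, 477 and 481 CPM (WT), 357, 327 and 365 CPM (Adar2KO) and 359, 451 and 239.8 CPM (Adar1-2KO). Its Adar2KO libraries lay just under the WT range and its Adar1-2KO libraries ran from below to within it. The related Trio had 3951 reads over 98 circles, the Rac exchange factor Tiam1 5726, and the Rap exchange factor Rapgef2 2128. Srgap2 and Srgap3, membrane-shaping proteins with an F-BAR domain, had 8024 and 1748 reads. Srgap3 was nearly missing from 1 library: it had 3 reads in Adar1-2KO replicate 3 and 52 to 391 in the other 8.

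Most reads came from a small part of the circles. Of the 2187 circles, 1033 (47.2%, against 55.6% of all circles) were listed in 1 library only and 134 (6.13%, against 4.53%) in all 9. Exonic circles were 1800 and held 97.4% of the reads, intronic ones were 354 and held 2.54%, and 33 were antisense to the host. ONT listed 621 of them (28.4%, against 22.2% of all circles), and these held 90.7% of the Illumina reads. A further gene was named for 146 circles, with 2.83% of the reads, so those reads cannot be given to the host alone.

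The 34 main circles, all exonic, held 40.3% of the reads of the 34 hosts. In 10 hosts the main circle held more than 50% of the host's reads: Iqsec1 (79.7%), Sipa1l2 (74.4%), Baiap2 (66.2%), Ppp1r9a (62.3%), Grip1 (59.8%), Iqsec2 (55.9%), Dlg1 (55.7%), Abi1 (55.3%), Srgap3 (53.1%) and Sipa1l3 (52.8%). At the other end were Lrrc7 (16.2%), whose reads needed 6 circles to reach 50%, and Dlg4 (14.9%). Adar1-2KO replicate 3 carried 4 of these shares, a check chosen after seeing the data: without it the main circle of Iqsec2 held 33.3%, of Lrrc7 7.34%, of Shank1 18.7% (39.1% with it) and of Dlg3 0% (33.0% with it), the other 30 moving by less than 1.5 times. All 63 Illumina reads of the Dlg3 main circle, and all 4 on ONT, were of that replicate, and on Illumina it held 487 of 699 for Iqsec2 and 815 of 1231 for Lrrc7. In Lrrc7, Shank1 and Dlg3 another circle was then first, which in Lrrc7 was chr3:157832852-157841046 with 757 reads, or 13.4%. The largest circle was that of Psd3 at chr8:68356769-68361541, with 17499 reads or 39.7% of its host. Next came Dlg1 at chr16:31615684-31631642 with 15899 reads, Ppp1r9a at chr6:5100432-5115480 with 13559, Grip1 at chr10:119765806-119781076 with 7471, Cnksr2 at chrX:156773104-156779680 with 5837 and Agap1 at chr1:89591383-89598993 with 5664. ONT read 32 of the 34 main circles and ranked 23 of them first in their host. Fmr1 and Dlg4 main circles had no ONT read.

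**Figure D2:**
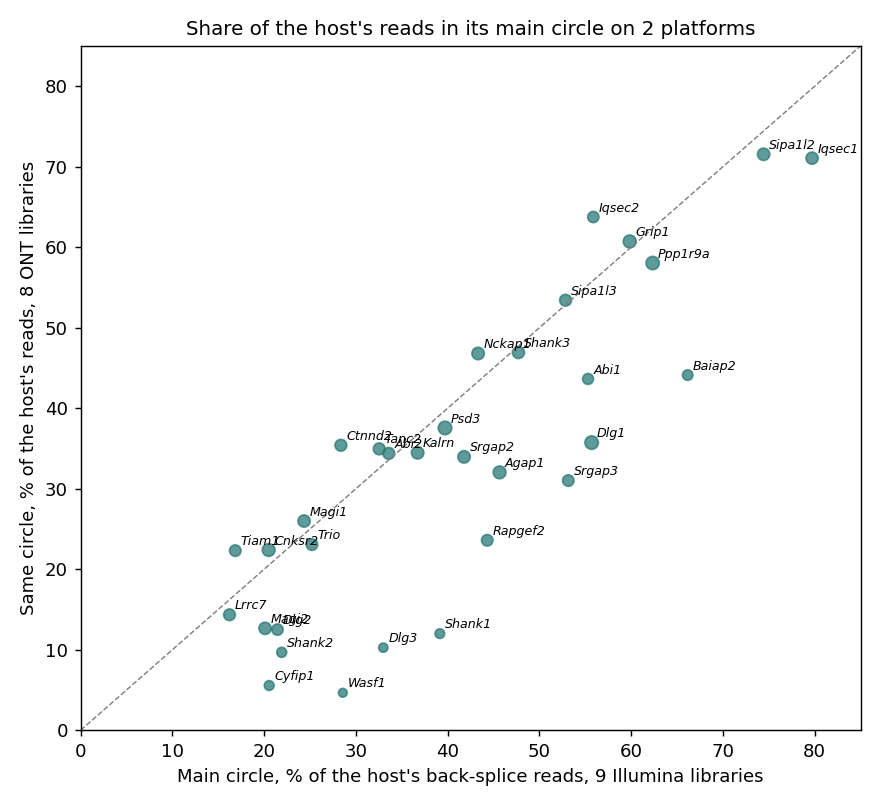
Share of each host's back-splice reads held by its main circle over the 9 Illumina libraries (x axis, %) against the share of the same circle over the 8 ONT libraries (y axis, %), 32 hosts with ONT reads, larger points for more Illumina reads, dashed line at equality. Iqsec1 and Sipa1l2 lie highest on both axes, and Dlg1, Baiap2, Rapgef2 and Shank1 lie below the line.

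Exons could be matched for 28 of the main circles. They held 1 to 13 exons (median 3) and 177 to 2888 spliced bases (median 599.5), and none held the first or the last exon. The circle began at exon 2 in Cnksr2, Iqsec1, Shank1 and Wasf1. All bases were coding in 25, and the other 3, of Shank1, Sipa1l2 and Wasf1, held the start codon. The length was a multiple of 3 in 11. Sipa1l2, Dlg3 and Magi2 circles were single exons of 1723, 177 and 639 bases.

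Related hosts mostly did not circularise the same exons. Of 10 pairs of relatives (chosen after the junctions had been seen), 4 shared 1 end of the main circle at the equivalent exon boundary and none shared both. Magi1 (exons 11 to 12) and Magi2 (exon 10) ended at the same donor boundary, as did Srgap2 (exons 6 to 10) and Srgap3 (exons 8 to 9), and Shank2 (exons 17 to 22) and Shank3 (exons 19 to 21). Dlg2 (exons 20 to 21) and Dlg3 (exon 12) began at the same acceptor boundary. The Dlg3 circle had all its Illumina reads in Adar1-2KO replicate 3, so this shared end rests on that library. Without that library, other circles came first in Dlg3 and in Shank1, which is part of 2 of the pairs. In the sequences above, 12 of the 15 acceptor bases were identical between Dlg2 and Dlg3 and 7 of the 15 donor bases. For Magi1 and Magi2, 11 of 15 donor bases and 5 of 15 acceptor bases were identical. Kalrn (exons 26 to 33) and Trio (exons 4 to 7), whose proteins are 69.7% identical over 2816 aligned residues, shared neither end. The exons in Dlg2 that correspond to the main circle of Dlg1 gave a circle of 60 reads, against 15899 in Dlg1. Those in Srgap3 that correspond to the main circle of Srgap2 gave a circle of 84 reads, against 3353 in Srgap2.

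Circular against linear splicing was measured by the junction ratio, which is 2 times the back-splice reads over that number plus the forward-splice reads at the same sites, in percent. After RNase R it describes what was left and not the original mixture. Among 82 circles of 23 of the hosts with at least 20 back-splice and forward-splice reads together in every library, the median of the mean ratio was 77.98%, against 73.34% over all 6353 such circles. Forward reads were 0 in every library for 9 of them, which then read 100%: the main circles of Trio, Srgap2 and Cnksr2, 2 further circles each of Cnksr2 and Ppp1r9a, and 1 each of Dlg1 and Magi1. The lowest was Cnksr2 at chrX:156717636-156779680, with a mean of 2.91% and a lowest library at 0.9%. It was followed by Ppp1r9a at chr6:5077480-5115480 with 5.01% and Magi2 at chr5:20420317-20433449 with 7.97%. Cnksr2 and Ppp1r9a thus held both the highest and the lowest ratios, in different circles of 1 host.

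Ratios moved widely between libraries of 1 genotype. The main circle of Kalrn read 98.5% to 100% in 8 libraries and 20.9% in Adar1-2KO replicate 3, and that of Ppp1r9a read 100% in 8 and 78.2% in the same library. The main circle of Dlg1 ran from 62.5% to 97.9%, that of Iqsec1 from 13.3% to 38.6%, that of Baiap2 from 0.1% to 7.2% and that of Shank1 from 0.6% to 14.5%. Forward reads were 0 in 42.8% of the library values of these 82 circles, against 33.2% over all circles tested, and replicates of 1 genotype could hold none or many: the Magi1 circle at chr6:93722415-93750670 had 0, 664 and 0 forward reads in WT. Fitted with limma on the log2 ratio of back-splice to forward-splice reads (0.5 added to each), none of the 82 passed an adjusted p of 0.05 in any comparison, against 0.0787% of all circles called for Adar2KO against WT, 0.0944% for Adar1-2KO against WT and 0.189% for Adar1-2KO against Adar2KO. At an unadjusted p under 0.05 there were 1, 4 and 2, given without their share over all circles. The Kalrn circle at chr16:33795786-33810259 had ratios of 3.6%, 4.1% and 11.3% in WT, 17.8%, 14.8% and 24.3% in Adar2KO, against 30.2%, 38.0% and 81.8% in Adar1-2KO. No groups overlapped, on 9 to 67 back-splice reads, and the log2 difference of Adar1-2KO from WT was 4.09 (SE 1.09, limma adjusted p 0.81).

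**Figure D3:**
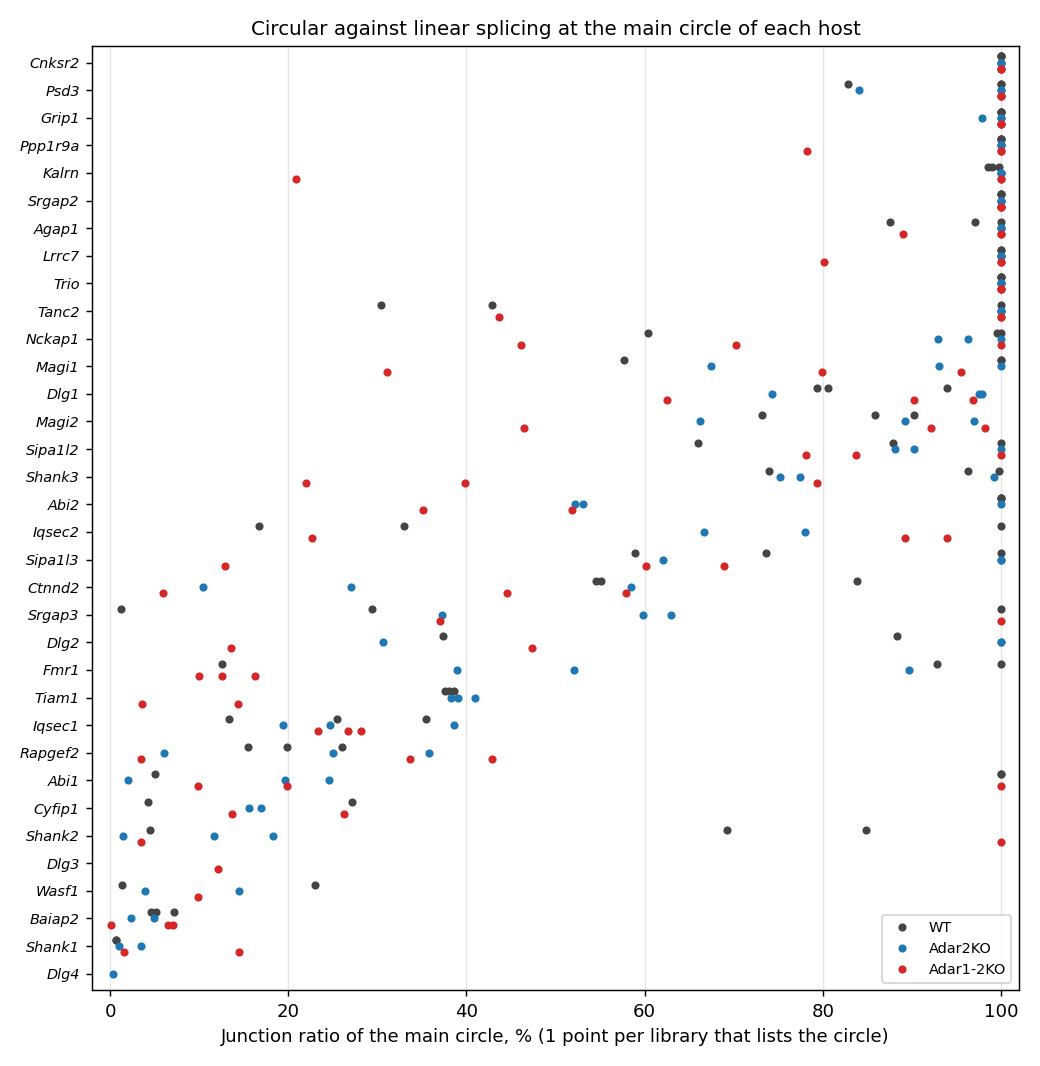
Junction ratio (%) of the main circle of each of the 34 hosts, 1 point per Illumina library that lists the circle, coloured by genotype and ordered by the median. Cnksr2, Srgap2 and Trio lie at 100% in every library, Shank1 and Baiap2 lie under 15%, and hosts such as Abi1 and Shank2 span nearly the whole axis.

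The comparison of Adar2KO with WT asks what differs with the loss of ADAR2 together with the Gria2R/R allele. No host sum of the 34 changed on Illumina by edgeR's quasi-likelihood test (0 of 34 at an adjusted p of 0.05, 0 at an unadjusted p under 0.05, 0 with DESeq2), where 0.0403% of the 9918 hosts tested were called. The median log2 fold change was 0.04 with 18 of 34 higher, against a median of 0.02 over all hosts. Rapgef2 had the lowest p: it had 218, 120 and 92 reads (WT), 313, 131 and 279 reads (Adar2KO) and 437, 234 and 304 reads (Adar1-2KO). Its Adar2KO libraries overlapped WT, and its log2 fold change was 0.54 (SE 0.34). Rapgef2 lies on chromosome 3, as does the Gria2 gene altered in both mutants, and any effect of their shared chromosome was not tested. Sipa1l2 and Kalrn followed at 0.37 (SE 0.29) and -0.34 (SE 0.26), and with CIRI2 counts Sipa1l2 had -0.055. Grip1 and Kalrn were the 2 hosts whose Adar2KO libraries all lay below WT (5.88% of the 34), against 5.51% of all hosts, and none lay wholly above, against 6.05%.

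On ONT, with 2 WT libraries, 32 of the hosts could be tested (Fmr1 and Baiap2 had too few reads), and 0 were called for Adar2KO against WT, where 0.069% of the 5801 hosts tested were. The unadjusted count was 2 with edgeR, given without its share over all hosts, and DESeq2 called 0. Rapgef2 again had the lowest p, at 64.6 and 75.5 CPM (WT), 183, 136 and 109 CPM (Adar2KO) and 94.5, 111 and 138 CPM (Adar1-2KO). All 3 Adar2KO libraries and all 3 Adar1-2KO libraries lay above both WT libraries, and the log2 fold change of Adar2KO against WT was 1.02 (SE 0.41), with an edgeR adjusted p of 0.84. Dlg4 read 22 and 9 times in WT and 6, 20 and 8 in Adar2KO, a log2 fold change of -1.57 (SE 0.72), and Ppp1r9a had -0.43 (SE 0.23). Hosts whose groups did not overlap were 7 higher and 5 lower, 21.9% and 15.6% of 32, against 19.2% and 11.9% of all hosts.

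The comparison of Adar1-2KO with WT adds the loss of ADAR1 editing and of Ifih1. Again 0 of 34 host sums were called on Illumina, where 0.0807% of all hosts were, and DESeq2 called 0. At an unadjusted p under 0.05 there was 1, given without its share over all hosts. That 1 was Shank3, the Shank gene with most circle reads, at 187, 278 and 206 CPM (WT), 207, 223 and 196 CPM (Adar2KO) and 103, 173 and 147 CPM (Adar1-2KO). The 3 Adar1-2KO libraries lay below all 6 others. The log2 fold change was -0.66 (SE 0.27), with an edgeR adjusted p of 0.67, and -0.70 (SE 0.28) without Adar1-2KO replicate 3. Within the libraries of the WT flow cell, where Adar1-2KO has 1 library, it was -0.34 (SE 0.36).

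On ONT Shank3 measured 452 and 409.6 CPM (WT), 409.7, 498 and 277 CPM (Adar2KO) and 180.0, 257 and 61.2 CPM (Adar1-2KO). Adar1-2KO again lay below all other libraries. The fold change was -1.41 (SE 0.45), with an edgeR adjusted p of 0.27, and -0.999 (SE 0.29, adjusted p 0.11) without replicate 3. The ONT circle of lowest p in this comparison was a Shank3 circle at chr15:89431829-89434085, with 40 and 28 reads in WT, 60, 78 and 37 in Adar2KO, against 18, 16 and 42 in Adar1-2KO. Its log2 fold change was -1.56 (SE 0.42), with an edgeR adjusted p of 0.46, and it was -1.74 (SE 0.43) without replicate 3.

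Rapgef2 was higher than WT in all 3 Adar1-2KO libraries on both platforms, with fold changes of 0.72 (SE 0.35) on Illumina and 0.72 (SE 0.41) on ONT. Its chromosome also carries the engineered Gria2R/R allele, and the part of that in these values was not tested. Fmr1 had -0.88 (SE 0.44) on Illumina, with all 3 libraries below WT in CPM, but 0.020 with CIRI2 counts. Magi2 and Magi1 on ONT had -0.65 (SE 0.20) and -0.51 (SE 0.22). Magi2 measured 820.1 and 900.1 CPM (WT), 776, 746 and 775 CPM (Adar2KO) and 531, 628 and 489.6 CPM (Adar1-2KO), so that its Adar1-2KO libraries lay below the other 5. No ONT host of the 34 was called (0 of 32, and 0 by DESeq2), where 0.0345% of all hosts were. At an unadjusted p under 0.05 there were 4, given without their share over all hosts. Illumina groups did not overlap for Rapgef2 (higher, 2.94% of 34 against 4.74% of all hosts) and for Ctnnd2, Fmr1, Shank3 and Wasf1 (lower, 11.8% against 8.99%). On ONT 4 were higher and 7 lower, 12.5% and 21.9%, against 14.5% and 12.2%.

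Between the 2 mutants, which differ by Adar1E861A and Ifih-/-, 0 of 34 hosts were called on Illumina, where 0.101% of all hosts were (0 at an unadjusted p under 0.05, 0 by DESeq2). Shank3, Trio and Ctnnd2 had the lowest p at -0.56 (SE 0.27), -0.62 (SE 0.31) and -0.63 (SE 0.32). Trio, which like Kalrn activates Rac, measured 150.1, 219.7 and 168 CPM (WT), 185, 225 and 172 CPM (Adar2KO) and 169, 129.7 and 80.03 CPM (Adar1-2KO). Its Adar1-2KO libraries lay below Adar2KO and the lowest was replicate 3, without which the fold change was -0.38 (SE 0.25). Ctnnd2 measured 213, 238 and 261 CPM (WT), 279.7, 218 and 270.4 CPM (Adar2KO) and 206, 199 and 89.5 CPM (Adar1-2KO), also lowest in replicate 3, without which it was -0.34 (SE 0.21). Illumina groups did not overlap for 3 higher (Grip1, Lrrc7 and Ppp1r9a) and 3 lower (Ctnnd2, Shank3 and Trio), each 8.82% of 34, against 4.25% and 8.31% of all hosts.

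ONT gave the smallest adjusted p of any host sum in this same comparison, for Ppp1r9a, at 681 and 1008 CPM (WT), 644, 577 and 656 CPM (Adar2KO) and 1125, 1233 and 886 CPM (Adar1-2KO). The Adar1-2KO libraries all lay above the Adar2KO ones. The log2 fold change was 0.79 (SE 0.21), with an edgeR adjusted p of 0.10, and it passed the threshold with DESeq2 (adjusted p 0.0044) and in edgeR without Adar1-2KO replicate 3 (0.92, adjusted p 0.014). On Illumina the same comparison gave 0.28 (SE 0.18). Shank3 had -1.29 (SE 0.40) on ONT with an edgeR adjusted p of 0.19, and Magi2 -0.48 (SE 0.18). In edgeR 0 of 32 were called, where 0.965% of all hosts were. DESeq2 called 1 of the 32, and 7 had an unadjusted edgeR p under 0.05. Both counts are given without their share over all ONT hosts, so they do not set these hosts apart. Groups did not overlap for 4 higher and 3 lower, 12.5% and 9.38%, against 9.96% and 12.4%.

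**Figure D4:**
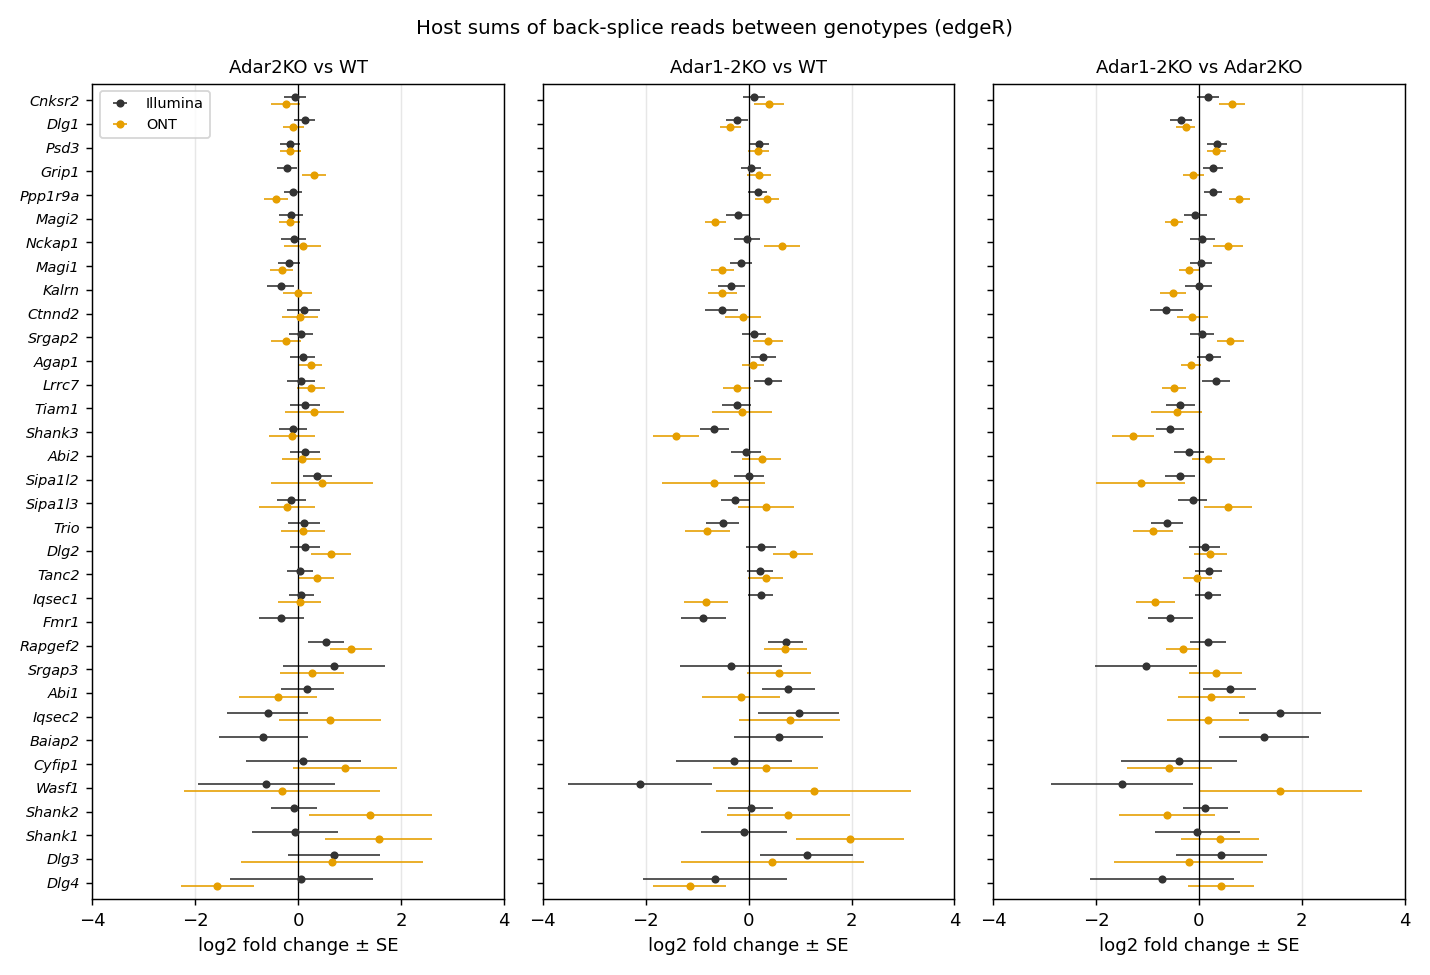
Log2 fold change of each host sum with its standard error (edgeR), in 3 panels for the 3 comparisons, black for Illumina and orange for ONT, with hosts ordered as in the plot of levels. Shank3 lies below 0 on both platforms in both comparisons of Adar1-2KO, and errors widen towards the thinly read hosts at the bottom.

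Fold changes of well-read hosts were estimated closely. The median standard error of the 34 on Illumina was 0.28 in log2, against 1.004 over all hosts (Adar2KO against WT), and it ran from 0.18 for Ppp1r9a to 1.39 for Dlg4. Of 32 hosts, 14 were higher and 9 lower on both platforms in Adar2KO against WT, 12 and 9 in Adar1-2KO against WT, and 8 and 8 between the mutants. Hosts beyond 0.5 in the same direction on both were Rapgef2 and Dlg3 (higher in Adar2KO than WT), Rapgef2 and Iqsec2 (higher) with Shank3, Trio and Dlg4 (lower) in Adar1-2KO against WT, and Shank3 and Trio (lower) between the mutants. The comparisons share libraries and the platforms share brains, so these are not independent. Without Adar1-2KO replicate 3, 7 and 8 of the 34 Illumina fold changes of Adar1-2KO (against WT and against Adar2KO) changed sign, with a median shift of 0.20 and the largest, 1.25 and 1.26, in Iqsec2.

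By role, median Illumina fold changes stayed within 0.29 of 0 in the groups described here, over 3 comparisons, and no member was called in any. The 4 Arf regulators had Illumina medians of 0.26 (Adar1-2KO against WT) and 0.28 (against Adar2KO). The ranges ran from 0.20 to 0.98 and from 0.18 to 1.57, the highest being Iqsec2. Without Adar1-2KO replicate 3, Iqsec2 had -0.28 (SE 0.66) and 0.31 (SE 0.66), and the medians were 0.07 and 0.16. On ONT the 4 had medians of 0.14 and 0.01, with 3 and 2 higher and ranges from -0.82 to 0.80 and from -0.85 to 0.34. Of the 6 WAVE and FMRP hosts, 1 had a higher fitted level in Adar1-2KO than in WT (median -0.17), and 3 without Adar1-2KO replicate 3 (median -0.04). The ONT median of the 5 of them tested was 0.33, in the other direction.

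Single circles had small counts, and on Illumina the number called was 0 in edgeR and near the background in DESeq2. Of 484 circles tested on Illumina, edgeR called 0 in each comparison, where 0.0209%, 0.0627% and 0.0209% of the 38297 circles were called for Adar2KO against WT, Adar1-2KO against WT and Adar1-2KO against Adar2KO. Unadjusted p-values under 0.05 numbered 4, 30 and 25, given without their share over all circles, so they do not set these circles apart. DESeq2 called 0, 3 and 3, which were 1 circle each of Kalrn, Dlg1 and Cnksr2. The 3 of 484 stand beside a DESeq2 background of 0.47% of all circles (Adar1-2KO against WT) and 0.454% (against Adar2KO), with 0.0914% for Adar2KO against WT. Of 149 circles tested on ONT, edgeR called 0, where 0.00965%, 0.0% and 0.492% of 10367 were called. DESeq2 called 0, 0 and 1 of them, where it called 0.0965%, 0.482% and 1.75% of all. The unadjusted counts on ONT were 3, 12 and 14, also given without their share over all circles. On Illumina, circles whose groups did not overlap were near the background: 22 higher (4.55% of 484, against 5.71% of all circles) and 21 lower (4.34% against 5.22%) in Adar2KO against WT. In Adar1-2KO against WT they were 18 higher (3.72% against 2.77%) and 50 lower (10.3% against 9.81%), and between the mutants 14 higher (2.89% against 2.39%) and 42 lower (8.68% against 9.41%). On ONT they were 16 higher (10.7% of 149, against 19.1%) and 10 lower (6.71% against 9.82%) in Adar2KO against WT. In Adar1-2KO against WT they were 22 higher (14.8% against 10.9%) and 19 lower (12.8% against 12.7%), and between the mutants 16 higher (10.7% against 7.22%) and 19 lower (12.8% against 14.4%).

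The Kalrn circle of exons 2 to 4 of 60, at chr16:34181187-34212479 on the minus strand, joins 383 spliced bases near the start of the gene and was read in Adar1-2KO alone. Illumina counted 0 reads in all 6 WT and Adar2KO libraries and 100, 49 and 54 in the 3 Adar1-2KO libraries. ONT counted 0 in its 5 WT and Adar2KO libraries and 11, 5 and 12 in Adar1-2KO. The second Illumina caller, CIRI2, counted 0 in the 6 and 56 and 71 in the 2 Adar1-2KO libraries it covers. The groups therefore did not overlap in any of the 3 tables. Against a floor of 3 reads over the group, the level was at least 48.5-fold higher than WT and at least 54.6-fold higher than Adar2KO on Illumina, and at least 2.88-fold and 8.40-fold on ONT.

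Tests of this circle differed by tool. It met the filter of 5 reads in 3 libraries only through Adar1-2KO, the group where it is high. The edgeR and DESeq2 p-values therefore add no support to the counts. EdgeR gave adjusted p-values of 0.41 against WT and 0.43 against Adar2KO (unadjusted 0.00071 and 0.00062), and DESeq2 gave 0.00058 and 0.00038. In the authors' deposited table it had a log2 fold change of 6.66 and an adjusted p of 0.0070, the only 1 of 1764 circles of these hosts in that table under 0.05, where 54 of all 160909 were (0.0336%). The authors' deposited table for Adar2KO lists only 772 circles, all with an unadjusted p under 0.05, and 46 of them had an adjusted p under 0.05. Circles of these hosts numbered 4 in it, with adjusted p-values of 0.65 and above. The Kalrn circle was 1 of 5 circles among 208914 with no read in the 6 libraries and at least 10 in each Adar1-2KO library, and 3 of those 5 were also read only in Adar1-2KO on ONT. That pattern was set after this circle was seen, so the count is descriptive. The test could not be run without Adar1-2KO replicate 3, since the filter asks for 5 reads in 3 libraries, but both remaining libraries held 49 reads or more. The host sum of Kalrn did not follow: its fold change was -0.34 (SE 0.26) against WT and 0.00 (SE 0.26) against Adar2KO. The other circles that begin at exon 2 were read in every genotype, so that all circles with this acceptor together made 2.69% to 3.80% of Kalrn reads in WT, 3.84% to 5.86% in Adar2KO, against 9.51%, 5.87% and 16.1% in Adar1-2KO. On ONT the groups overlapped, with 6.12% and 10.5% (WT), 5.33%, 16.3% and 8.78% (Adar2KO), and 12.9%, 9.63% and 20.5% (Adar1-2KO).

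Dlg1 circles that begin at 1 acceptor, picked after the values were seen, held a higher share of Dlg1 reads in the Adar1-2KO libraries. Circles that begin at exon 9 (acceptor at chr16:31608995, 6 circles) made 0.0757%, 0.922% and 0.296% of Dlg1 reads (WT), 0.811%, 0.540% and 0.635% (Adar2KO), and 6.99%, 6.38% and 8.68% (Adar1-2KO) on Illumina. ONT gave 0 reads in both WT libraries, against 0.429%, 0.659% and 0.370% for Adar2KO, and 5.50%, 2.07% and 14.3% for Adar1-2KO. Adar1-2KO lay above every other library on both platforms, and without replicate 3 the 2 remaining libraries still did. This acceptor was chosen after the values were seen, so it is given with no test. Kalrn and Dlg1 both lie on chromosome 16, and whether their circles differ independently of each other was not tested.

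The main part of it was the circle of exons 9 to 13 (698 bases, chr16:31608995-31624552), with 3, 19 and 0 reads in WT, 18, 7 and 1 in Adar2KO, against 149, 95 and 258 in Adar1-2KO. ONT counted 0 in all 5 other libraries and 13, 5 and 45 in Adar1-2KO, which is at least 18.9-fold higher than Adar2KO. Illumina log2 fold changes were 3.95 (SE 1.32) against WT and 3.83 (SE 1.31) against Adar2KO, with edgeR adjusted p-values of 0.72 and 0.76. In the authors' deposited table it had a log2 fold change of 3.29 and an adjusted p of 0.91. Meanwhile circles that begin at the acceptor of the main circle, exon 12, made 60.2% ± 5.33 (SD, n = 3) of Dlg1 reads in WT, 63.6% ± 3.93 in Adar2KO and 50.4% ± 4.36 in Adar1-2KO on Illumina, and the Adar1-2KO range overlapped that of WT and lay below that of Adar2KO. On ONT they made 43.7% and 45.0% in WT, 32.7% to 42.0% in Adar2KO and 31.1% to 38.3% in Adar1-2KO.

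Another Dlg1 circle was missing from Adar1-2KO. At chr16:31561924-31657044, beginning at exon 5, it had 8, 17 and 7 reads in WT, 8, 10 and 22 in Adar2KO and 0 in all 3 Adar1-2KO libraries. It was thus at least 14.9-fold lower than WT and 16.5-fold lower than Adar2KO, with edgeR adjusted p-values of 0.70 and 0.76 and DESeq2 values of 0.030 and 0.029. It met the read filter only through WT and Adar2KO, where it is high, so these p-values add no support to the counts. It was 1 of 40 circles with no read in Adar1-2KO and at least 7 in each other library, a pattern set after this circle was seen. ONT read it 4 times in 1 Adar2KO library only. CIRI2 counted 8 to 29 reads in the WT and Adar2KO libraries and 0 in both Adar1-2KO libraries. Circles with the same exon 5 acceptor together kept their share, 12.3% ± 2.07 of Dlg1 reads in WT, 11.5% ± 1.41 in Adar2KO and 12.7% ± 0.431 in Adar1-2KO (SD, n = 3 each).

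**Figure D5:**
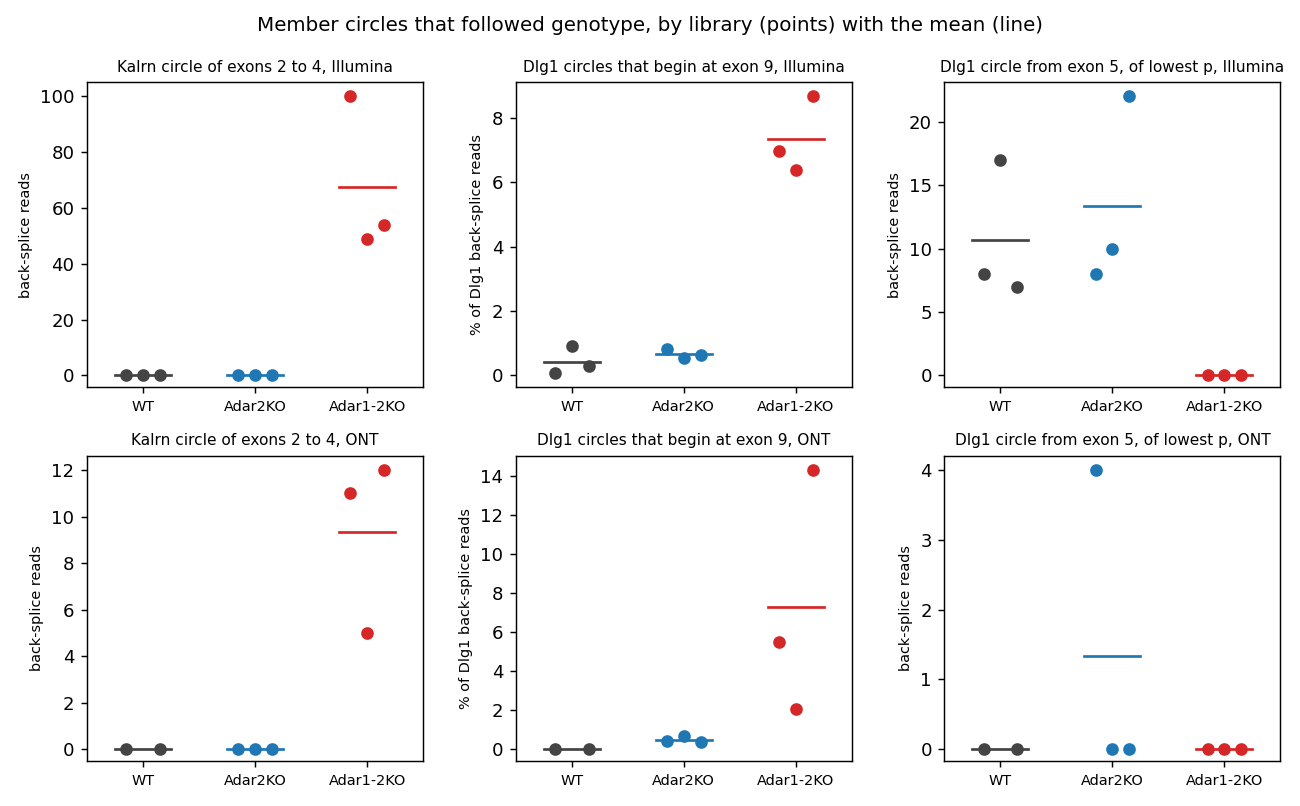
Values per library (points, with the mean as a line) for the Kalrn circle of exons 2 to 4 (reads), the Dlg1 circles that begin at exon 9 (% of Dlg1 back-splice reads) and the Dlg1 circle from exon 5 (reads), in the 3 genotypes, Illumina above and ONT below. The Kalrn circle is at 0 outside Adar1-2KO on both platforms, the exon 9 share is 6.38% to 8.68% in Adar1-2KO and under 1% elsewhere on Illumina, and the exon 5 circle is at 0 in Adar1-2KO.

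The Cnksr2 circle of exons 12 to 13 (chrX:156671394-156673168, 305 bases) had 0, 5 and 4 reads in WT, 7, 4 and 3 in Adar2KO, against 63, 18 and 400 in Adar1-2KO. All Adar1-2KO libraries were higher, but most reads lay in replicate 3. The log2 fold changes were 4.73 (SE 1.39) against WT and 4.48 (SE 1.36) against Adar2KO, with edgeR adjusted p-values of 0.72 and 0.76, and 3.13 (SE 1.20) and 2.87 (SE 1.17) without that library. On ONT it had 33 reads in that replicate, 2 in Adar1-2KO replicate 1 and 3 in Adar2KO replicate 1. For Adar2KO against WT, the circles of lowest p were 1 each of Abi2, Abi1 and Rapgef2, with 0 reads in 1 of the 2 groups and at most 17 in any library of the other. The Abi2 circle had 5, 1 and 11 reads in WT, the Abi1 circle 7, 6 and 5, and the Rapgef2 circle 17, 4 and 10 in Adar2KO, all with an edgeR adjusted p of 1.0. Other counts did not all leave the low group at 0: ONT read the Abi1 circle 0 and 0 times (WT), 0, 4 and 3 times (Adar2KO) and 6, 2 and 6 times (Adar1-2KO). In Adar2KO, CIRI2 counted 3 reads of the Abi1 circle in replicate 3 and 2 of the Abi2 circle in replicate 1.

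On ONT, 2 other circles of Dlg1 ran the other way from the exon 9 circle. The circle of exons 5 to 14 had 27 and 18 reads in WT, 56, 57 and 46 in Adar2KO, against 20, 12 and 42 in Adar1-2KO, a log2 fold change of -1.33 (SE 0.36) between the mutants with an edgeR adjusted p of 0.20. The circle at chr16:31606900-31631642 had 32 and 19 reads in WT, 31, 37 and 42 in Adar2KO, against 10, 8 and 0 in Adar1-2KO, a log2 fold change of -2.91 (SE 0.91) against WT with an edgeR adjusted p of 0.49. The ONT circle with the smallest adjusted p was the main circle of Ppp1r9a, with 131, 140 and 142 reads in Adar2KO, against 269, 207 and 402 in Adar1-2KO (log2 fold change 0.96, SE 0.22, edgeR adjusted p 0.14).

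Further genes of the postsynaptic density also gave few calls. Of 66 (glutamate receptor subunits, Homer, Dlgap, CaMKII and others, listed with earlier results of these data known), 60 were tested on Illumina and 0 were called in any comparison, with median log2 fold changes of -0.03, -0.02 and -0.04. On ONT 57 were tested, and 1 was called, higher in Adar1-2KO than in Adar2KO.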

How the data were processed

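Back-splice junction counts were deposited per library: the authors quantified Illumina reads with CIRIquant 1.1.2 (per the file headers), and BWA 0.7.17 and GRCm39 are named in the submitters' processing notes. CIRI2 counts were also deposited for 8 Illumina libraries. The ONT caller is not given in the sources used here. The deposited Adar1-2KO tables hold their values 1 column to the right of the header names, and were read that way. The junction ratio is deposited as a fraction. The authors' deposited comparison tables give log2 fold changes and p-values. Circles whose gene field names a member were summed per host. The 34 members and all gene lists were chosen with earlier results of these data known; named hosts and circles were the 3 of lowest p per comparison and the main circles.

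Counts were tested over all hosts or circles with edgeR 4.0.16 (quasi-likelihood, TMM, Benjamini-Hochberg, at least 5 reads in 3 libraries, all 3 genotypes in 1 fit per platform), with DESeq2 1.42.0 as the alternative. Junction ratios were tested with limma 3.58.1. Counts at an unadjusted p under 0.05 are given without their share over all features, so they do not set these hosts apart. Replicates are whole brains by the labels, which do not say more of their source, so p-values measure the spread between these samples. Fitting was tested on simulated data. Exons were matched to GENCODE M21 by length, since the reference build differs from that of the files.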

Additional observations from a re-analysis of the deposited data

How the results depend on the processing

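Of 175 counts of called hosts or circles recomputed under another setting, 162 stayed within the rule for no change. On ONT, Adar1-2KO against Adar2KO gave 1 called host with DESeq2 (Ppp1r9a), 1 without the low-count filter (Shank3, adjusted p 0.0016) and 0 to 1 over fits that left out 1 replicate (1, Ppp1r9a, without Adar1-2KO replicate 3). Adar1-2KO against WT gave 1 without the filter (Shank3, adjusted p 0.0089). Illumina circles gave 3 and 3 with DESeq2 and 2 and 2 without the filter (Kalrn and a Psd3 circle at chr8:68354940-68361538) for Adar1-2KO against WT and against Adar2KO. ONT circles between the mutants gave 1 with DESeq2 (Ppp1r9a) and 0 to 1 with 1 replicate left out (1, Nckap1, without Adar1-2KO replicate 3). Junction ratios gave 0 to 1 with 1 replicate left out in each comparison: Magi1 without WT replicate 2, and Tanc2 in both comparisons without Adar1-2KO replicate 1. The cause was not tested.

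The share of back-splice reads was 0.996%, 0.965% and 1.017% (WT, Adar2KO, Adar1-2KO) on Illumina and 0.909%, 0.911% and 0.902% (WT, Adar2KO, Adar1-2KO) on ONT for circles of 1 gene name, and 1.11%, 1.07% and 1.099% with CIRI2 counts; 1 of these 9, Illumina Adar1-2KO at 1 gene name, moved by less than 1 SD. With CIRI2 counts, Sipa1l2 reversed to -0.055 in Adar2KO against WT and Fmr1 to 0.020 in Adar1-2KO against WT; of 493 values of named hosts and circles, 476 kept direction and side of the threshold, 15 passed it and these 2 reversed. Over all features, DESeq2 called more than edgeR: 20, 52 and 96 hosts (94, 251 and 298 in edgeR without the filter) against 4, 8 and 10 on Illumina, and 180 and 174 circles (434 and 372 without the filter) against 24 and 8 for Adar1-2KO against WT and Adar2KO. The replicate block called 0 hosts and circles of the 34 genes in every comparison and gave the Kalrn circle 8.93 against WT. Between genotypes within each platform, the deviations of same-numbered replicates had correlations from -0.042 to 0.038. Whether same-numbered libraries were handled together was not tested, and the numbers were not compared between platforms. Leaving Adar1-2KO replicate 3 out of the shared fit for Adar2KO against WT, chosen after seeing the data, also called 0. Low read numbers limit Dlg3, Dlg4, Wasf1 and Shank1.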
